A study of Homo sapiens with 12 samples.

Results

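The MYC, MAX and MXD network is a set of transcription factors that share MAX as a dimerization partner. Its 10 members were chosen by gene name: MYC, MYCN, MYCL1, MAX, MXI1, MXD1, MXD3, MXD4, MNT and MGA. All 10 were present among the 23228 genes of the count files, and 9 passed the filter on low counts and were tested together with all other genes (14189 tested). MYCN was not tested, since it had 1 read in all 12 libraries.

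Proteins of the MYC family (MYC, MYCN and MYCL, the last listed under its older symbol MYCL1) dimerize with MAX, bind E-box DNA and activate genes of ribosome production, nucleotide synthesis and cell growth. The MXD proteins (MXD1, MXI1, MXD3 and MXD4), MNT and MGA pair with the same MAX and occupy the same kind of site, and the MXD proteins and MNT recruit the SIN3-HDAC corepressor there. In prostate cancer MYC is a well-known oncogene, and signalling through PI3K and AKT restrains the FOXO factors, of which MXI1 is a known target gene in other cells.

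Transcripts were measured by polyA RNA-seq in C4.2B, an established human line of castration-resistant prostate cancer. There were 4 arms of 3 libraries (A, B and C): vehicle (DMSO), 0.5 µM of the pan-PI3K inhibitor GDC-0941 (GDC), 5 µM of GSK126, an inhibitor of the histone methyltransferase EZH2 (GSK), and both agents (COMBO). Each arm was treated for 24 h in 10% charcoal-stripped serum, which is low in androgens, after 6 days in GSK126 for the GSK and COMBO arms or in vehicle for the DMSO and GDC arms. Everything below thus describes 1 cell line in low-androgen medium, at 1 dose of each agent, and the replicates were plated in triplicate, so p-values measure the spread between plates, which may be technical.

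Libraries held 8785218 to 44437751 counts in genes. Reads in genes made up 75.8% ± 0.456 of reads with DMSO, 74.1% ± 0.214 with GDC, 70.7% ± 0.494 with GSK and 67.6% ± 1.17 with COMBO (SD, n = 3), a share that moved with treatment and whose part in the results was not tested. All 8 prostate epithelial markers examined were present, and their summed level was 3043 to 3221 CPM (reads scaled to a common library size by TMM) with DMSO, 4319 to 4343 with GDC, 4135 to 4469 with GSK and 5116 to 5464 with COMBO. Single markers went the other way, HOXB13 with GSK (log2 fold change -0.29) and COMBO (-0.68) and KRT18 with GDC (-0.22). The 10 markers of leukocytes, endothelium and fibroblasts summed to 17.7 to 20.0 CPM with DMSO, 21.3 to 26.2 with GDC, 39.3 to 52.2 with GSK and 40.9 to 60.5 with COMBO. Among them, CD3E had 0 counts and PTPRC, PECAM1, CDH5, COL1A2 and DCN stayed at or under 0.330 CPM, while COL1A1 reached 45.9 CPM. Their part in the results was not tested.

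GDC and GSK moved MYC in opposite directions, and COMBO left it between the levels of the single agents. MYC lies at chr8:127735434-127742951 (hg38, plus strand) and has 3 exons in its canonical transcript. Its level in replicates A, B and C was 249, 263 and 249 CPM with DMSO, 437, 431 and 437 CPM with GDC, 188, 174 and 156 CPM with GSK, and 294, 286 and 293 CPM with COMBO. No library of any arm overlapped with a library of another arm, and the order was GSK, DMSO, COMBO and GDC from lowest to highest. In bulk RNA of a line, fewer cells with a transcript and less of it in each cell cannot be told apart.

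MYC rose 1.71-fold in GDC against DMSO (log2 fold change 0.78, SE 0.051, adjusted p = 1.43e-09, edgeR quasi-likelihood test with Benjamini-Hochberg adjustment, as for every test here). In GSK it fell 1.47-fold (log2 fold change -0.56, SE 0.053, adjusted p = 8.53e-09). The gap between the single agents was therefore wider than either change, and MYC was 2.52-fold lower in GSK than in GDC (log2 fold change -1.33, adjusted p = 4.80e-14). In COMBO MYC was slightly above DMSO (log2 fold change 0.20, SE 0.051, adjusted p = 0.00149), below GDC (-0.58, adjusted p = 2.52e-09) and above GSK (0.75, adjusted p = 6.16e-10). The change in COMBO was close to the GDC and GSK changes added together (interaction -0.02 on the log2 scale, SE 0.073, adjusted p = 0.862), so MYC passed no test of non-additivity. Scaling by library totals in place of TMM, which shifted the median of all genes up by 0.21 in COMBO, gave MYC a log2 fold change of 0.40 there.

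MYCL1 responded to GSK126 and was low throughout. This gene, a MYC family member best known from small-cell lung cancer, lies at chr1:39895428-39902256 (minus strand) and has 2 named pseudogenes, so its counts are uncertain. It stood at 6.84, 7.13 and 7.94 CPM with DMSO, 7.51, 7.45 and 8.58 with GDC, 11.9, 13.7 and 9.66 with GSK, and 13.5, 13.3 and 13.7 with COMBO. Both arms with GSK126 lay above both arms without it, whereas DMSO overlapped with GDC and GSK overlapped with COMBO. MYCL1 rose 1.57-fold with GSK (log2 fold change 0.65, SE 0.12, adjusted p = 5.95e-05) and 1.80-fold with COMBO (0.85, SE 0.11, adjusted p = 5.64e-07), and with GDC its log2 fold change was 0.07 (SE 0.12, adjusted p = 0.664). COMBO against GSK was at 0.20 (adjusted p = 0.166), and passed the threshold without GSK B, the highest GSK library (0.36, adjusted p = 0.0247).

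MYCN, the family member associated with neuroblastoma and neuroendocrine prostate cancer, was at or near 0. It lies at chr2:15940550-15947007 (plus strand), where the antisense gene MYCNOS overlaps it. Its single read was in DMSO C, the deepest library, and the other 11 libraries had 0 reads. With 0 reads seen, a level of up to 3 counts per library is allowed by counting error alone (0.142 to 0.341 CPM in these 11, depending on depth), so a level above that was not detected in them.

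MAX, the shared partner, fell wherever GSK126 was present. It lies at chr14:65006174-65102695 (minus strand), where FNTB overlaps it on the opposite strand. Its level was 88.6, 87.0 and 85.6 CPM with DMSO, 82.1, 81.3 and 81.0 with GDC, 69.9, 61.0 and 67.2 with GSK, and 64.3, 67.6 and 64.2 with COMBO. GSK and COMBO overlapped with each other and lay below the DMSO and GDC libraries. MAX fell 1.32-fold in GSK (log2 fold change -0.40, SE 0.053, adjusted p = 1.08e-06) and 1.33-fold in COMBO (-0.41, SE 0.051, adjusted p = 3.25e-07). In GDC its log2 fold change was -0.09 (SE 0.051, adjusted p = 0.155), although its 3 GDC libraries lay below the 3 DMSO libraries, and it passed the threshold with DESeq2 size factors (-0.14, adjusted p = 0.0414), without GSK A (-0.13, adjusted p = 0.0415) and without GSK B (-0.13, adjusted p = 0.0331). FNTB, the overlapping gene, passed no test against DMSO (log2 fold change 0.28 with GDC, -0.12 with GSK and -0.20 with COMBO).

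**Figure D1:**
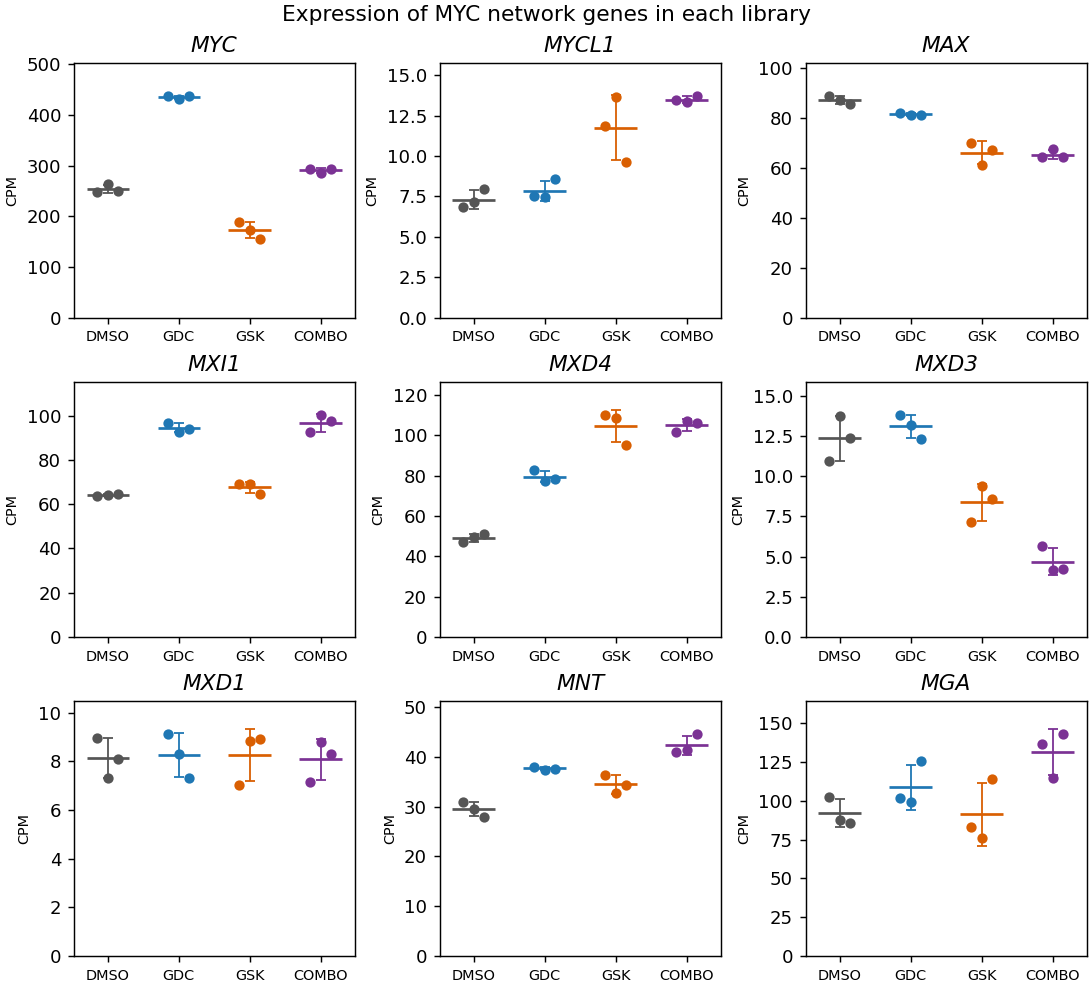
Level of the 9 tested members in each of the 12 libraries, in CPM on linear axes that start at 0, with points for libraries A, B and C and lines and error bars for the mean ± SD (n = 3) of each arm. The 3 MYC points of GDC sit at 431 to 437 CPM and those of GSK at 156 to 188 CPM, on either side of DMSO, and the 3 MXD3 points of COMBO sit at 4.17 to 5.63 CPM, below every other arm.

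The MXD family did not move as a unit. MXI1 was higher in the arms with the PI3K inhibitor, MXD4 rose with either agent, MXD3 fell in the arms with GSK126 and MXD1 passed no test.

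MXI1, an MXD protein that antagonizes MYC and a FOXO target in other cells, lies at chr10:110207605-110287365 (plus strand). It stood at 63.9, 64.0 and 64.6 CPM in DMSO and at 68.9, 69.2 and 64.7 in GSK. With the PI3K inhibitor it stood at 96.9, 92.8 and 94.1 CPM in GDC and at 92.4, 100.1 and 97.6 in COMBO. The arms with GDC-0941 overlapped with each other and lay above both arms without it. MXI1 rose 1.47-fold in GDC (log2 fold change 0.56, SE 0.049, adjusted p = 5.66e-08) and 1.51-fold in COMBO (0.59, SE 0.048, adjusted p = 5.75e-10), and GSK left it at 0.07 (SE 0.051, adjusted p = 0.200). COMBO and GDC did not separate (log2 difference 0.03, SE 0.048, adjusted p = 0.527). Scaled by library totals, the values for GSK (0.23, adjusted p = 0.000448) and for COMBO against GDC (0.21, adjusted p = 0.000556) passed the threshold.

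Of the 3 MXI1 start-site windows, 1 holds a forkhead core, the letters GTAAACA that FOXO factors are known to bind. It is shown because MXI1 was higher in both arms with the PI3K inhibitor, and a part of FOXO factors was not tested. MYC, MXD4 and MNT were also higher in GDC (log2 fold change 0.78, 0.68 and 0.37). The windows of MXD4 and MNT held no such core, and MYC had no window to search. The window is the 250 bases before that start site (RefSeq, GRCh38.p14, chr10:110209981-110210230, plus strand), and the capitals mark the core, which reads on the opposite strand and begins 151 bases before the start.
MXI1: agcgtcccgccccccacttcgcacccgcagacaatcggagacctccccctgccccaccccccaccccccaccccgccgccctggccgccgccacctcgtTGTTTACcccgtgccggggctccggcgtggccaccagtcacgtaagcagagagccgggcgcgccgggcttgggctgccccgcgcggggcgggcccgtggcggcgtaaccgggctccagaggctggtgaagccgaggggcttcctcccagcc
The same core, on either strand, was in 2.98% of all 35116 windows of that length (1046 windows). It was in no window of the other members searched, which leave out MYC. The share is per window, and MXI1 had 3 windows, more than most other members. A match describes letters in a window and not binding.

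MXD4, an MXD protein that antagonizes MYC, lies at chr4:2247432-2262109 (minus strand), where the microRNA gene MIR4800 overlaps it. Its level was 46.9, 49.4 and 50.9 CPM with DMSO, 82.6, 77.4 and 78.3 with GDC, 109.9, 108.8 and 95.3 with GSK, and 101.6, 107.3 and 106.1 with COMBO. GSK and COMBO overlapped, GDC lay below them, and DMSO was the lowest arm. MXD4 rose 1.61-fold with GDC (log2 fold change 0.68, SE 0.059, adjusted p = 4.31e-08), 2.12-fold with GSK (1.08, SE 0.059, adjusted p = 1.79e-12) and 2.13-fold with COMBO (1.09, SE 0.057, adjusted p = 4.63e-13). GDC-0941 thus went with a rise in the absence of GSK126, while in its presence COMBO and GSK differed by 0.01 on the log2 scale (SE 0.056, adjusted p = 0.939). The interaction was -0.68 (SE 0.081, adjusted p = 6.05e-06), a combined change smaller than the sum.

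MXD3 moved the other way and changed more than the other members in COMBO. MXD3, an MXD protein known for expression in proliferating cells, lies at chr5:177301461-177312757 (minus strand). It stood at 10.9, 13.8 and 12.4 CPM with DMSO, 13.8, 13.2 and 12.3 with GDC, 7.14, 9.41 and 8.56 with GSK, and 5.63, 4.17 and 4.22 with COMBO. DMSO and GDC overlapped, GSK lay below both, and COMBO lay below GSK. MXD3 fell 1.48-fold with GSK (log2 fold change -0.56, SE 0.13, adjusted p = 0.000442) and 2.68-fold with COMBO (-1.42, SE 0.13, adjusted p = 2.40e-09), against 0.06 with GDC (SE 0.11, adjusted p = 0.692). COMBO was 1.81-fold below GSK (log2 fold change -0.86, SE 0.15, adjusted p = 7.62e-05). The interaction was -0.92 (SE 0.18, adjusted p = 0.00121), a combined fall larger than the sum.

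Read counts behind MXD3 were modest, from 58 in COMBO C to 515 in DMSO C, and the gene shares exonic bases with RAB24 on the same strand and PRELID1 on the opposite strand. RAB24 went up in COMBO (log2 fold change 0.89, adjusted p = 5.58e-10) and PRELID1 went down (-1.41, adjusted p = 2.13e-15). The interaction was 0.38 for RAB24 (adjusted p = 0.0164) and -0.37 for PRELID1 (adjusted p = 0.00144), so PRELID1 moved in the direction of MXD3. Because strand use in the counting is not given in the sources used here, the part of PRELID1 in the MXD3 counts was not tested.

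MXD1, the founding MXD protein, which is induced in differentiating cells, lies at chr2:69897688-69942945 (plus strand), where SNRNP27 overlaps it on the same strand. Its 12 libraries spanned 7.03 to 9.10 CPM and every pair of arms overlapped. Its log2 fold change was 0.03 with GDC (SE 0.12, adjusted p = 0.874), 0.06 with GSK (SE 0.13, adjusted p = 0.707) and 0.01 with COMBO (SE 0.12, adjusted p = 0.918). With an SE of that size, small changes of MXD1 were not detectable. SNRNP27 fell in COMBO (-0.74, adjusted p = 1.48e-07), while MXD1 stood at 0.01.

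MNT and MGA are larger proteins outside the MXD family. MNT, a MAX partner present in most cells that represses MYC targets, rose a little in each arm. It lies at chr17:2384073-2401104 (minus strand) and stood at 30.8, 29.6 and 28.0 CPM with DMSO, 38.0, 37.4 and 37.6 with GDC, 36.4, 32.7 and 34.2 with GSK, and 41.0, 41.3 and 44.5 with COMBO. The 4 arms did not overlap, in the order DMSO, GSK, GDC and COMBO. The log2 fold change was 0.37 with GDC (SE 0.062, adjusted p = 0.000103), 0.23 with GSK (SE 0.065, adjusted p = 0.00277) and 0.53 with COMBO (SE 0.060, adjusted p = 7.58e-08), and the interaction was -0.07 (SE 0.088, adjusted p = 0.623). The GSK value passed the threshold neither without DMSO C (0.17, adjusted p = 0.0582) nor without GSK A (0.16, adjusted p = 0.0538).

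MGA, a scaffold that joins MAX to the repressive complex PRC1.6, lies at chr15:41621134-41773081 (plus strand) with 24 exons in its canonical transcript. It varied widely between replicates, at 102.2, 87.6 and 85.7 CPM with DMSO, 101.7, 98.9 and 125.4 with GDC, 83.2, 76.1 and 114.2 with GSK, and 136.7, 114.4 and 142.7 with COMBO. COMBO lay above DMSO and GSK in all 3 libraries, and the other pairs of arms overlapped. MGA rose 1.44-fold with COMBO (log2 fold change 0.52, SE 0.12, adjusted p = 0.000323), against 0.26 with GDC (SE 0.12, adjusted p = 0.0878) and 0.00 with GSK (SE 0.12, adjusted p = 0.975). Its interaction of 0.26 (SE 0.17, adjusted p = 0.286) passed the threshold without GSK C (0.46, adjusted p = 0.0163), the highest GSK library, and so did its value in GDC (0.25, adjusted p = 0.0260). With all libraries and no filter on low counts, the interaction (0.36, adjusted p = 0.000645) and the GDC value (0.19, adjusted p = 0.00665) passed as well. The GDC value also passed in a fit of the compared arms alone (0.26, adjusted p = 0.0105).

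The windows before the start sites of MXD4 and MNT each hold 1 E-box, CACGTG, the site that MAX dimers bind. They are shown because both genes rose in all 3 inhibitor arms and because the network binds this site. Both are the 250 bases before the RefSeq start (GRCh38.p14), at chr4:2262110-2262359 (minus strand) for MXD4 and chr17:2401061-2401310 (minus strand) for MNT. The capitals mark the E-box, which begins 238 bases before the start in MXD4 and 193 bases before it in MNT and reads alike on either strand.
MXD4: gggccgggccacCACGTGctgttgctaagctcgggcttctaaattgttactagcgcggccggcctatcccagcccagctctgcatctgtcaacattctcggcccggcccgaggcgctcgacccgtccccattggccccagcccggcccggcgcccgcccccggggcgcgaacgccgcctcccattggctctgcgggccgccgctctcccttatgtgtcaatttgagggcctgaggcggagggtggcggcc
MNT: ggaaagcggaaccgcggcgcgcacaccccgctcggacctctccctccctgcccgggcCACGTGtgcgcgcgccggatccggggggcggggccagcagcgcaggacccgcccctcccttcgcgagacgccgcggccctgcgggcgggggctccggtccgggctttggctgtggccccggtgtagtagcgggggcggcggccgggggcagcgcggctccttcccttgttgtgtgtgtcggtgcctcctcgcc
An E-box was in 6.34% of all windows of this length (2228 windows). None was found in the windows of MYCN, MYCL1, MAX, MXI1, MXD1, MXD3 or MGA, which says only that these letters were not in these windows.

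Counted over the network, 4 of the 9 tested members were higher and 0 lower in GDC against DMSO, where 20.0% of all tested genes were higher and 20.0% lower. The 4 were MYC, MXI1, MXD4 and MNT, so the activator and 3 of its antagonists were higher together. In GSK 3 members were higher (MYCL1, MXD4 and MNT) and 3 lower (MYC, MAX and MXD3), beside 40.0% and 35.7% of all tested genes. In COMBO 6 were higher (MYC, MYCL1, MXI1, MXD4, MNT and MGA) and 2 lower (MAX and MXD3), beside 43.3% and 39.2%. No member was lower in GDC at an unadjusted p under 0.05 by edgeR, and 0 were by DESeq2. The 3 comparisons share the DMSO libraries, many genes responded in each, and nothing particular to the network is read from these counts.

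**Figure D2:**
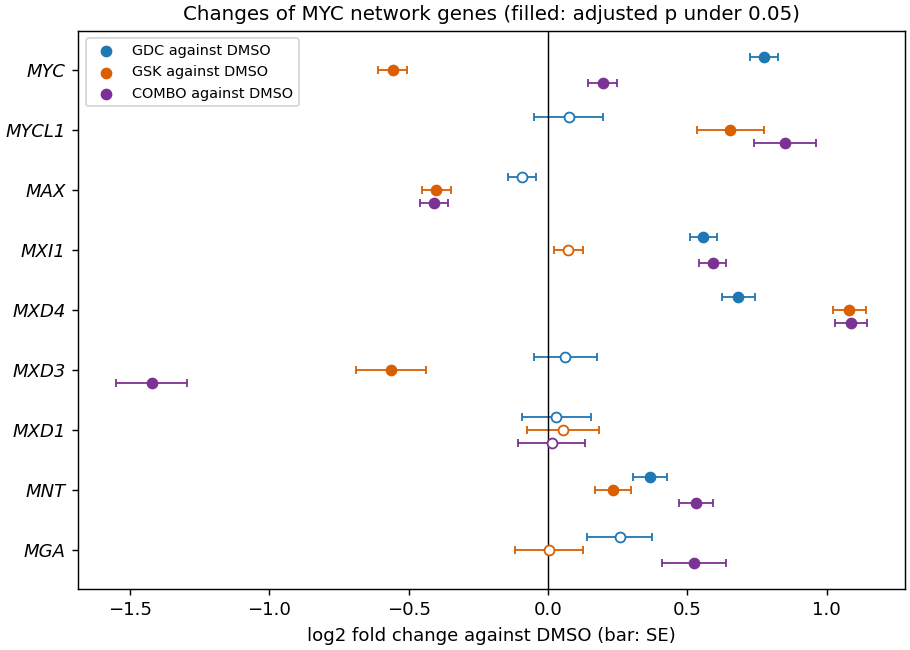
Log2 fold change against DMSO of the 9 tested members in GDC, GSK and COMBO, with bars for the SE and filled points for an adjusted p under 0.05. MYC lies at 0.78 in GDC and -0.56 in GSK, on opposite sides of 0, while MXD4 lies at 0.68, 1.08 and 1.09 and MXD3 at 0.06, -0.56 and -1.42.

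Compared with GDC, COMBO had 4 members higher and 3 lower, beside 37.9% and 38.0% of all tested genes. The higher ones were MYCL1 (log2 fold change 0.78), MXD4 (0.41), MGA (0.27) and MNT (0.16), and the lower ones were MXD3 (-1.49), MYC (-0.58) and MAX (-0.32). The calls on MGA (adjusted p = 0.0420) and MNT (adjusted p = 0.0183) were the nearest to the threshold and both were lost without COMBO C (adjusted p = 0.204 and 0.152), and that on MGA also without COMBO A (0.0746), GDC A (0.0909) or GDC B (0.112). Compared with GSK, COMBO had 4 members higher, MYC (0.75), MXI1 (0.52), MGA (0.52) and MNT (0.30), and 1 lower, MXD3 (-0.86), beside 19.0% and 26.9%. These are the members for which adding GDC-0941 to GSK126 made a measurable difference. GSK against GDC had 2 higher, MYCL1 (0.58) and MXD4 (0.40), and 4 lower, MYC (-1.33), MXD3 (-0.63), MXI1 (-0.48) and MAX (-0.31), beside 32.6% and 33.4%. There MNT was at -0.13 (adjusted p = 0.0785) and passed the threshold without GSK A (0.0441) or COMBO C (0.0340), and MGA was at -0.25 (adjusted p = 0.0712) and passed it without GDC B (0.0442), GSK C (0.000824), COMBO B (0.0481) or COMBO C (0.0452). With all libraries and no filter on low counts MGA passed it too (-0.27, adjusted p = 4.76e-05).

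The interaction compared the change in COMBO with what adding up the changes of the separate agents would give, on the log2 scale. It was past the threshold for 2 of 9 members, MXD4 and MXD3, both negative, and for 0 in the positive direction, beside 16.5% of all tested genes that were negative and 4.86% that were positive. The count of 0 was also 0 at an unadjusted p under 0.05 by edgeR, and by DESeq2. MXD4 rose in each single-agent arm and stood in COMBO at the level of GSK, whereas MXD3 was lower with GDC-0941 in the presence of GSK126 and at a log2 fold change of 0.06 in its absence. The split of all calls depended on the scaling, with 22.7% of the interaction calls positive under TMM and 35.2% under DESeq2 size factors. In GDC against DMSO 49.98% of calls were higher under TMM, 40.2% under DESeq2 size factors and 58.5% under library totals. In COMBO against DMSO 52.5% of calls were higher under TMM and 63.3% under library totals. The corresponding shares were 52.8% and 64.0% in GSK against DMSO, 49.9% and 62.8% in COMBO against GDC, 41.4% and 52.3% in COMBO against GSK, and 49.4% and 62.1% in GSK against GDC.

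Levels of different members can be compared only per length. Per kilobase of the canonical transcript in DMSO, MYC was highest at 68.2 ± 2.15 CPM per kb, followed by MAX at 43.3 ± 0.762 (SD, n = 3). MXI1 came next at 18.5 ± 0.109, ahead of MXD4 at 12.7 ± 0.516 and MXD3 at 11.6 ± 1.32, and the last pair did not differ beyond the SD of MXD3. MGA (7.53 ± 0.740), MNT (5.98 ± 0.291), MYCL1 (2.07 ± 0.162) and MXD1 (1.46 ± 0.148) were lower. The order changed in COMBO, where MXI1 (27.9 ± 1.13) and MXD4 (27.1 ± 0.777) were near MAX (32.5 ± 0.969), and MXD3 (4.38 ± 0.776) was below MNT (8.58 ± 0.392). Lengths are those of the annotation and not of the transcripts these cells use. The order depends on the length chosen, since the exons of all transcripts together span 4.74 kb for MXD3 and 6.26 kb for MAX. Their canonical transcripts have 1.07 and 2.01 kb.

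A ratio of reads within a library needs no scaling between libraries. MYC had 2.81, 3.02 and 2.92 reads per MAX read with DMSO, 5.32, 5.30 and 5.39 with GDC, 2.70, 2.85 and 2.33 with GSK, and 4.57, 4.23 and 4.57 with COMBO. This ratio was higher in the arms with GDC-0941, and GSK, in which MYC and MAX were both lower, overlapped with DMSO. The MYC to MXD4 ratio ordered the arms differently, at 5.17 ± 0.237 with DMSO, 5.48 ± 0.162 with GDC, 1.65 ± 0.0598 with GSK and 2.77 ± 0.113 with COMBO (SD, n = 3). Here DMSO and GDC overlapped, and both arms with GSK126 were far below them. Per MXI1 read, MYC had 3.95 ± 0.134 reads with DMSO, 4.60 ± 0.0769 with GDC, 2.55 ± 0.163 with GSK and 3.01 ± 0.161 with COMBO. Thus COMBO, which had more MYC than DMSO, had less MYC for each MXI1 and MXD4 read.

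The MYC to MNT ratio was 8.63 ± 0.480 with DMSO, 11.5 ± 0.0715 with GDC, 5.02 ± 0.395 with GSK and 6.89 ± 0.279 with COMBO. The MYC to MGA ratio was 2.78 ± 0.304, 4.04 ± 0.487, 1.97 ± 0.521 and 2.23 ± 0.234 in the same order, and COMBO overlapped with DMSO and GSK. The ratios are of reads and not of proteins, and they are given as a description without a test.

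**Figure D3:**
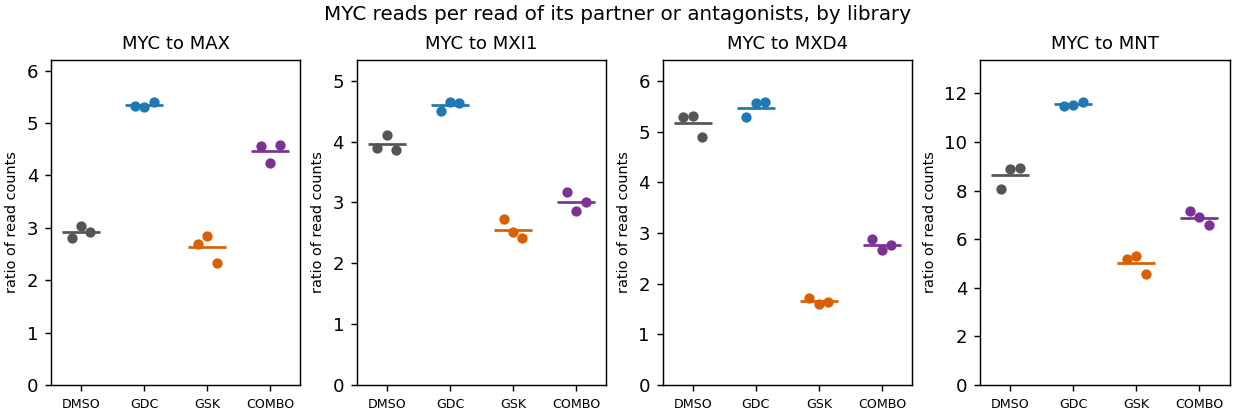
Reads of MYC per read of MAX, MXI1, MXD4 and MNT in each library, on linear axes that start at 0, with points for libraries A, B and C and lines for the mean (n = 3) of each arm. MYC per MAX read is 2.92 in DMSO and 4.46 in COMBO on average, while MYC per MXD4 read is 5.17 in DMSO and 2.77 in COMBO.

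The genes around the network were described with lists chosen by known role. MLX, MLXIP (MondoA) and MLXIPL (ChREBP), a parallel branch that senses glucose through the MAX-like protein MLX, split: MLXIPL was 1.41 higher and MLX 0.84 lower in COMBO on the log2 scale (adjusted p = 9.28e-07 and 7.32e-12), and MLXIP was at 0.11 (adjusted p = 0.0950). The same 2 genes passed the test in the same directions in GDC and in GSK. Over all tested genes 40.1%, 75.7% and 82.5% were called in GDC, GSK and COMBO. The share of 2 in 3 genes was above this in GDC and below it in GSK and COMBO. MLXIPL was low, at 2.92 ± 0.443 CPM with DMSO and 7.83 ± 1.87 with COMBO (SD, n = 3). The MLXIPL call in GDC (0.57, adjusted p = 0.0430) was the nearest to the threshold, and without DMSO A, DMSO C, GDC A, GDC C, GSK A, GSK B or COMBO C the count called in GDC was 1 in place of 2.

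Of 15 MYC coactivators, 1 was higher and 4 lower with GDC, 2 higher and 7 lower with GSK, and 4 higher and 7 lower with COMBO, with a median log2 fold change of -0.08, -0.21 and -0.06 beside 0.02, 0.06 and 0.05 over all tested genes. The background was 20.0% of all tested genes higher and 20.0% lower with GDC, 40.0% and 35.7% with GSK, and 43.3% and 39.2% with COMBO. The share of coactivators called lower was somewhat above it in each arm, and the share called higher was below it. Called in either direction, their share was below the 40.1%, 75.7% and 82.5% of all tested genes. The higher gene in GDC was CCNT1 and the lower ones were ACTL6A, RUVBL1, RUVBL2 and WDR5. In GSK the higher ones were CREBBP and ZBTB17, the latter a MYC partner better known from repression than as a coactivator. The acetyltransferases EP300 (0.51, adjusted p = 4.08e-05) and CREBBP (0.50, adjusted p = 3.69e-06) were among the 4 higher genes, with EP400 and KAT5. RUVBL1, an ATPase of chromatin remodelling complexes, fell most (-1.39, adjusted p = 5.80e-16), from 268 ± 5.22 CPM in DMSO to 102 ± 5.16 in COMBO (SD, n = 3). Its partner RUVBL2 (-1.23) and the MYC cofactor WDR5 (-1.23) were also lower. In this and the next lists, genes other than those with the largest rise and fall in COMBO were named after their values were seen. With DESeq2 size factors 8 coactivators were called in GDC in place of 5.

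Of 15 genes of the SIN3-HDAC corepressor, which MXD proteins and MNT recruit, 1 was higher and 3 lower with GDC, 1 and 9 with GSK, and 4 and 10 with COMBO (median -0.04, -0.25 and -0.29), beside 20.0%, 35.7% and 39.2% of all tested genes that were lower and 20.0%, 40.0% and 43.3% that were higher. The share called in either direction was below that of all tested genes in GDC (40.1%) and in GSK (75.7%). In COMBO it was above it (82.5%). SIN3A was higher in GDC, where BRMS1, HDAC2 and SAP30 were lower, and SIN3B was higher in GSK. HDAC2, a histone deacetylase, fell most in COMBO (-1.07, adjusted p = 4.64e-14), from 390 ± 5.93 to 186 ± 12.04 CPM. The corepressor NCOR1 rose (0.33, adjusted p = 0.000174), and the other higher genes were ARID4A, ARID4B and SIN3B.

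The 10 partners of MGA in PRC1.6 included 7 lower genes with GDC, 9 with GSK and 8 with COMBO (median -0.17, -0.60 and -0.64), beside 20.0%, 35.7% and 39.2% of all tested genes that were lower. TFDP1, a partner of E2F factors, went from 168 ± 5.33 CPM in DMSO to 56.8 ± 3.19 in COMBO (-1.56, adjusted p = 3.97e-16). RING1, a ubiquitin ligase of Polycomb complexes, was higher in COMBO and in GSK (0.39, adjusted p = 3.32e-05, and 0.25, adjusted p = 0.00510), and RYBP was not called in COMBO (-0.05, adjusted p = 0.412). In GDC 0 were higher by edgeR, at an adjusted or an unadjusted p under 0.05, and 0 by DESeq2. MGA itself was higher in COMBO.

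Genes that act on MYC protein stability were also examined, since transcript levels do not show protein levels. Of 15 found, 1 was higher and 4 lower with GDC, 1 and 9 with GSK, and 2 and 10 with COMBO (median -0.05, -0.35 and -0.33). Over all tested genes 20.0% were higher and 20.0% lower with GDC, 40.0% and 35.7% with GSK, and 43.3% and 39.2% with COMBO. The list had a larger share of lower calls than this in each arm and a smaller share of higher calls. Called in either direction, its share was below the 40.1%, 75.7% and 82.5% of all tested genes. AURKA, a mitotic kinase that protects MYC family proteins from degradation, was 173 ± 3.77 CPM with DMSO, 101 ± 3.17 with GDC, 76.2 ± 4.70 with GSK and 29.5 ± 1.21 with COMBO. It fell by 2.56 on the log2 scale in COMBO (adjusted p = 6.86e-19), more than the sum of the single agents (interaction -0.60, adjusted p = 1.26e-05). PIM1, a kinase that phosphorylates MYC, rose by 0.42 (adjusted p = 7.51e-05), as did the ubiquitin ligase gene BTRC (0.27, adjusted p = 0.00114). The other ligase genes FBXW7 (-0.30), SKP2 (-1.72) and STUB1 (-0.82) were lower in COMBO, and HUWE1 was not called (0.28, adjusted p = 0.0770). The list mixes genes that protect MYC protein with genes that degrade it, so its counts give no direction for the protein. PIM1 was also the higher gene in GDC, where AURKA, PLK1, SKP2 and KIAA1524 were lower, and GSK3B was the higher gene in GSK.

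MYC-activated targets were mostly lower in the 3 inhibitor arms, also where MYC was higher. Of 53 listed genes 52 were tested, all but EIF4A1. In GDC, where MYC rose, 0 were higher and 40 lower, with a median log2 fold change of -0.28. At an unadjusted p under 0.05, 2 were higher in GDC by edgeR, and 0 were called higher by DESeq2. In GSK 1 was higher and 51 lower (median -1.09), and in COMBO 1 was higher and 51 lower (median -1.48). The median over all tested genes was 0.02, 0.06 and 0.05 in these comparisons, and the background of lower calls was 20.0%, 35.7% and 39.2% (of higher calls 20.0%, 40.0% and 43.3%).

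The exception was the same gene in GSK and COMBO, CCND2, which encodes cyclin D2. It was low with DMSO (0.542 ± 0.0537 CPM) and reached 9.97 ± 1.42 with GSK and 9.82 ± 1.13 with COMBO (log2 fold change 4.14 and 4.12, adjusted p = 2.01e-13 and 3.68e-14). TERT, the telomerase reverse transcriptase, fell most, from 4.95 ± 0.660 CPM with DMSO to 0.610 ± 0.148 with GSK and 0.283 ± 0.101 with COMBO (-3.00 and -4.05, adjusted p = 6.39e-10 and 3.96e-12). In GDC TERT was at 4.46 ± 0.507 CPM (adjusted p = 0.316). A few reads per library stood behind the TERT level in COMBO, so its fitted change there depends on the prior count. Many targets on this list belong to ribosome production and the cell cycle and respond to factors other than MYC. The list was written from textbook knowledge with earlier results of these data known, so its counts are a description and not independent support.

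Of the genes known to be repressed by MYC, 7 of 9 were higher and 1 lower in GSK against GDC, beside 32.6% and 33.4% of all tested genes. Of 9 tested, 4 were higher and 3 lower with GDC (median -0.02), and 7 higher and 0 lower with GSK (median 0.76). With COMBO, where MYC itself was slightly above DMSO, 6 were higher and 0 lower (median 0.30). The all-gene background was 20.0%, 40.0% and 43.3% higher and 20.0%, 35.7% and 39.2% lower, with medians of 0.02, 0.06 and 0.05. None was lower in GSK or COMBO by edgeR at an unadjusted p under 0.05, and 0 were by DESeq2. In GDC the higher ones were NDRG1, NDRG2, PDGFRB and THBS1, and the lower ones CDKN1A, CDKN2B and CEBPA. THBS1, an inhibitor of angiogenesis, rose most, from 83.8 ± 3.51 CPM with DMSO to 123 ± 12.5 with GDC, 869 ± 52.9 with GSK and 991 ± 43.7 with COMBO (COMBO log2 fold change 3.56, adjusted p = 9.40e-20). The cell-cycle inhibitor CDKN1A (p21) was lower in GDC (-0.75, adjusted p = 2.88e-08) and higher in GSK (0.43, adjusted p = 1.75e-06). In COMBO it was at 0.10 (adjusted p = 0.131).

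**Figure D4:**
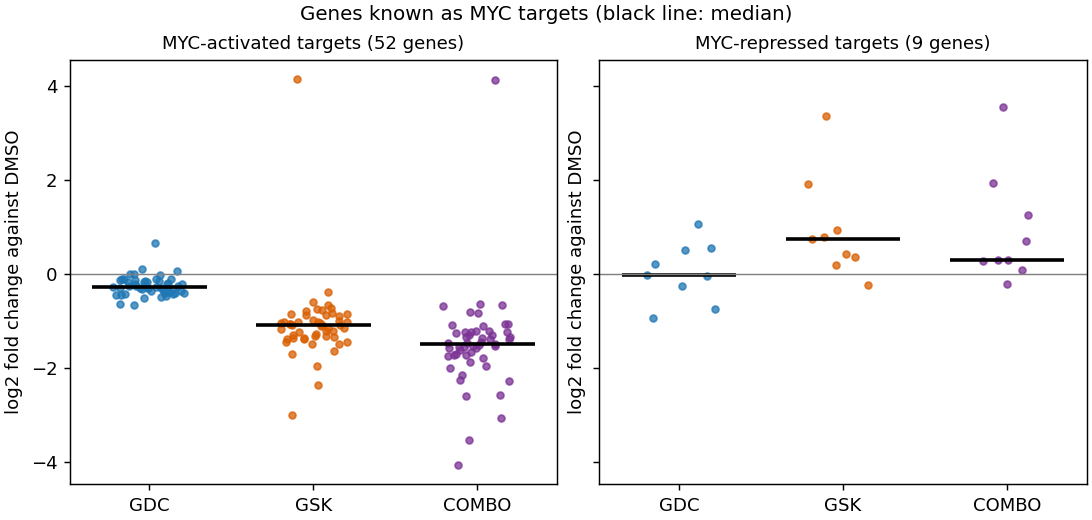
Log2 fold change against DMSO of each tested MYC-activated target (52 genes) and MYC-repressed target (9 genes) in GDC, GSK and COMBO, with 1 point per gene and a black line at the median. The median of the activated targets goes from -0.28 in GDC to -1.09 in GSK and -1.48 in COMBO, and that of the repressed targets is -0.02, 0.76 and 0.30.

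The genes whose levels followed MYC most closely over the 12 libraries were FSTL1 (Pearson r = 0.980), ZNF740 (0.972), RFX3 (0.968), ZBTB44 (0.966) and MAML3 (0.965), out of 11284 genes compared on log2 CPM. FSTL1, a secreted glycoprotein, stood at 29.0 ± 1.13 CPM with DMSO, 39.6 ± 1.28 with GDC, 24.6 ± 1.61 with GSK and 32.2 ± 1.45 with COMBO. All 5 had higher values in GDC and lower values in GSK. By Spearman rho only 1 of these 5 stayed among the top 5. For MXD3, the antagonist that changed most in COMBO, the closest genes were TOMM34 (0.986), C20orf27 (0.983) and GLYR1 (0.983). The points are libraries of 4 arms and share treatment, so the correlations describe a pattern over arms and carry no p.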

How the data were processed

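PolyA RNA-seq was analysed in 12 libraries, 3 in each of 4 arms. Per the labels and the study's methods, the authors used STAR for alignment to hg38 and HTSeq for counting. The deposited files give raw counts, whole numbers of reads for each gene symbol. Neither versions nor annotation nor strand setting are given in the sources used here, so overlapping genes are uncertain. A table of counts divided by size factors (DESeq2) was not used here. The 5 summary lines per file stayed out of library sizes. Replicates differed beyond sampling noise (chi-square per degree of freedom 1.76 to 6.18). The highest values were of COMBO B with COMBO A (6.18) and with COMBO C (5.74), while COMBO A with COMBO C was at 2.89.

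Counts were tested with edgeR 4.0.16 in R 4.3.3 (TMM, filterByExpr, quasi-likelihood test, two-sided) in 1 fit of all 12 libraries without covariates. The common biological coefficient of variation was 0.0499. Genes with a Benjamini-Hochberg adjusted p under 0.05 over 14189 tested genes were called. The scripts were tested on simulated data. Members, lists and comparisons were chosen with earlier results of these data known. From each list the called genes with the largest rise and fall in COMBO against DMSO were named. Likeness used log2 CPM (prior count 2, mean log2 CPM of at least 2). Positions and lengths are from GENCODE 44 on hg38. RefSeq promoter windows (GRCh38.p14) matched 9 members, all but MYC.

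Alternatives were DESeq2 1.42.0, edgeR with DESeq2 size factors or with library totals, a filter at a mean of 1 CPM or none, fits of the compared arms, a replicate block and fits without each library. For likeness they were Spearman rho and a prior count of 0.25.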

Additional observations from a re-analysis of the deposited data

Results flagged for a closer look

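Members whose response to GDC-0941 differed between the arms with and without GSK126, by the interaction in edgeR, were MXD3 and MXD4. For MXD3 the interaction was -0.92 (SE 0.18, adjusted p = 0.00121), since it was at 0.06 in GDC against DMSO and at -0.86 in COMBO against GSK on the log2 scale. Over the alternatives it ranged from -1.00 to -0.76. For MXD4 the interaction was -0.68 (SE 0.081, adjusted p = 6.05e-06), since it was at 0.68 in GDC against DMSO and at 0.01 in COMBO against GSK. Over the alternatives it ranged from -0.74 to -0.58. Samples that stand apart were not looked for, since each arm had 3 libraries.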

How the results depend on the processing

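Of the member values recomputed, 1157 stayed on their side of the threshold, 21 passed it newly and 10 lost it. The direction changed in 113 of the 1157, each of them of a value that was not called (17 values, the largest at 0.12 on the log2 scale), and in 0 values that were called. Counts of members called stayed within 1.5 times of the main count under each alternative. Without each library in turn, they ranged from 4 to 5 in GDC against DMSO, from 5 to 6 in GSK against DMSO, stayed at 8 in COMBO against DMSO, and ranged from 5 to 7 in COMBO against GDC, from 5 to 6 in COMBO against GSK, from 6 to 8 in GSK against GDC and from 2 to 3 in the interaction. The lost calls were of MNT in GSK against DMSO and of MNT and MGA in COMBO against GDC, and the latter were lost in DESeq2 too (MNT 0.17, adjusted p = 0.0525, and MGA 0.27, adjusted p = 0.171). MNT in GSK was also lost without a filter (0.15, adjusted p = 0.0994). The cause was not tested.

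Replicate letters did not pair the libraries over all arms. The correlation of deviations between same-lettered libraries was -0.0839 to 0.188 over 18 pairs, and 0 libraries correlated best with their own letter in every other arm. Between GDC and COMBO alone, each library did correlate best with its own letter, though weakly (0.116 for A, 0.188 for B and 0.0727 for C). With the replicate block, 5 members were called in GDC against DMSO, 7 in GSK against GDC and 2 in the interaction, the additions being MGA (0.25, adjusted p = 0.0303, and -0.26, adjusted p = 0.0185).

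Among list counts, 880 stayed within 1.5 times and 44 did not. The called MLX branch genes in GDC went from 2 to 1 under 10 of the alternatives, and the called coactivators in GDC from 5 to 8 with DESeq2 size factors. The other moved counts were of COMBO against GSK, GSK against GDC and the interaction. MXD1, MXD3 and MYCL1 had few reads, which limits what could be detected for them.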
